A study of Sus scrofa with 14 samples.

Results

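Lysosomal cysteine proteases, their secreted inhibitor cystatin C and a pair of genes known from osteoclasts were followed in the meniscus of Wuzhishan pigs. The genes were CTSB, CTSK, CTSL, CST3, ITGB3 and ACP5, chosen by name, and every array probe whose RefSeq transcript belongs to one of them was taken. This gave 12 probes of 5 genes, out of 43603 probes in all, of which RefSeq accessions named 2389 genes: 4 for CTSB, 1 for CTSK, 1 for CST3, 2 for ITGB3 and 4 for ACP5. CTSL had no probe under that symbol and dropped out. A further 10 probes read a gene that RefSeq lists as CTSV with CTSL, CTSL1 and CTSL2 as synonyms, and these are described separately under the name CTSV.

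The tissue was meniscus, the fibrocartilage pad of the knee, from male pigs whose age the labels give as 6 to 7 months. The series describes 14 pigs divided at random. The osteoarthritis (OA) group held 7, sampled 24 weeks after anterior cruciate ligament surgery, and the sham group 7, sampled 24 weeks after a sham operation, with 1 single-colour array for each pig. No transgene or drug is named in the labels, and they do not say what was done to the ligament. Tissue was read in bulk, so fewer cells of a type and less RNA per cell cannot be told apart.

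Cathepsins B, K and L belong to the papain family of cysteine proteases, which digest proteins in lysosomes and, when secreted, outside the cell. Cathepsin K cuts the triple helix of fibrillar collagen and is the main matrix protease of osteoclasts, although fibroblasts and chondrocytes of the joint also make it. Cystatin C, the product of CST3, is secreted by most cells and blocks these cathepsins by filling their active site. Osteoclasts hold on to bone through an integrin made of the beta 3 chain (ITGB3) and the alpha V chain, and their tartrate-resistant acid phosphatase (ACP5) is the enzyme by which they are stained in tissue. The beta 3 chain also pairs with the alpha IIb chain (ITGA2B) on platelets.

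All 12 probes were well above background on all 14 arrays, as were the 10 CTSV probes and 27747 of the 43603 probes in all. No spot was saturated. Each level is the log2 signal less the 75th percentile of its own array, so that 0 is the 75th percentile and 1 is a doubling. Levels of different probes are not compared, because probes differ in how strongly they bind, and the marker sums given further below carry that limit. None of the 12 probes passed the threshold of 0.05 between the groups by limma, adjusted by Benjamini and Hochberg's method across the 38818 probes tested, where 3.73% of probes were called (2.89% higher and 0.848% lower in OA). At an unadjusted p under 0.05 there were 3 of the 12, 1 each of CTSB, ITGB3 and ACP5, against 19.6% of all tested probes. Of the 12 changes 6 were positive and 6 negative, with a median of -0.07 beside -0.05 over all tested probes.

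OA arrays were dimmer than sham arrays, and the groups lay on separate slides. The raw 75th percentile ran from 417 to 618 on the sham arrays and from 156 to 491 on the OA arrays. Arrays with the same scan time were taken to share a slide. By that reading sham 1 to 4 lay on slide 1 and sham 5 to 7 on slide 2, OA 1 on slide 3, OA 2 to 5 on slide 4 and OA 6 and 7 on slide 5. No slide and no scan day held both groups, so that a difference between OA and sham cannot be told apart from one between slides. The dimmest arrays were those of slides 3 and 4, OA 1 to OA 5.

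**Figure D1:**
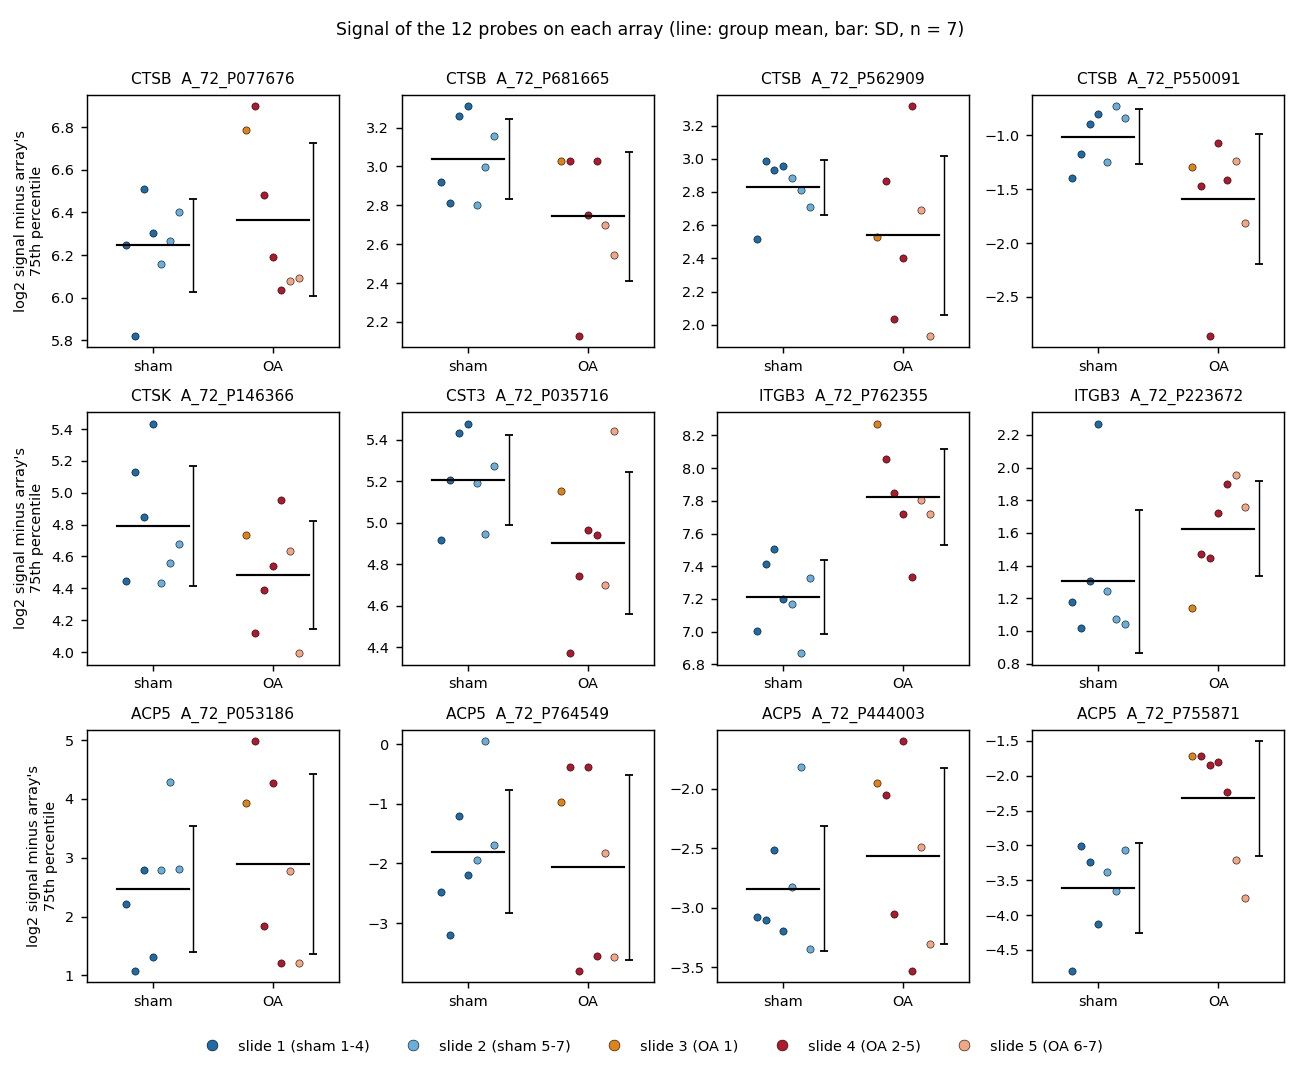
Level of each of the 12 probes on each array, as log2 signal minus the array's 75th percentile, for sham and OA (points coloured by slide, line the group mean, bar the SD, n = 7). The brighter ITGB3 probe (A_72_P762355) sits between 6.87 and 7.50 in sham and between 7.34 and 8.27 in OA, and the ACP5 probe A_72_P755871 is high on slides 3 and 4 only.

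Cathepsin B, a lysosomal protease that can act both as an endopeptidase and as a trimmer of peptide ends, gave probes that did not move together. Its brightest probe (A_72_P077676, mean signal 29096 in arbitrary units) had a lowest, median and highest level of 5.82, 6.27 and 6.51 in sham and of 6.04, 6.19 and 6.90 in OA. The groups overlapped, with OA 1 and OA 2 above every sham array. The change was 0.12 ± 0.18 (SE, n = 7 per group; log2) with a 95% interval of -0.26 to 0.50 (limma adjusted p = 0.75). The other 3 CTSB probes were lower in OA by value, with mean signals of 149 (A_72_P550091), 2363 (A_72_P562909) and 2729 (A_72_P681665). A_72_P550091 ran from -1.40 to -0.73 in sham, with a median of -0.90, and from -2.86 to -1.07 in OA, with a median of -1.42. All 7 OA arrays lay below the sham mean on this probe and 4 of them below every sham array, but the change of -0.58 ± 0.24 (SE) did not pass (limma adjusted p = 0.20). A_72_P681665 stood at -0.29 ± 0.17 and A_72_P562909 at -0.29 ± 0.20 (limma adjusted p = 0.37 and 0.45).

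The 4 CTSB probes were also unlike each other between animals. With the group means removed, the brightest probe had a Pearson correlation over the 14 arrays of 0.01 with A_72_P550091, -0.04 with A_72_P562909 and 0.38 with A_72_P681665, whereas the other 3 correlated with each other at 0.51 to 0.78. These points share array and scaling, and the values describe the arrays only. The change of the brightest probe exceeded that of A_72_P550091 by 0.70 and that of A_72_P681665 by 0.42, and neither difference passed (two-sided exact permutation tests, adjusted p = 0.058 for both over 7 probe pairs). Averaged over its 4 probes, CTSB stood at -0.26 with a 95% interval of -0.60 to 0.08, opposite in sign to its brightest probe.

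Cathepsin K was read by a single probe (A_72_P146366, mean signal 9145). Its lowest, median and highest levels were 4.43, 4.68 and 5.43 in sham and 3.99, 4.54 and 4.96 in OA. The ranges overlapped widely: 6 of 7 OA arrays were below the sham mean and 3 below every sham array. The change was -0.31 ± 0.20 (SE, n = 7 per group; log2), and its 95% interval of -0.74 to 0.12 includes 0 (limma adjusted p = 0.42). The 2 highest sham arrays, sham 4 and sham 2, lay on slide 1, whose mean of 4.96 stood above the 4.56 of slide 2. The 3 OA slides had means of 4.73, 4.50 and 4.32.

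CTSV, the gene whose RefSeq synonyms include CTSL, was the most densely covered, with 10 probes. Cathepsin L and its close relative cathepsin V are endopeptidases of the lysosome. Of the 10 probes 8 had a positive and 2 a negative change, with a median of 0.19, and none passed the threshold. The brightest (A_72_P577898, mean signal 10311) had a lowest, median and highest level of 4.27, 4.66 and 4.95 in sham and of 4.65, 4.94 and 5.21 in OA. All 7 OA arrays lay above the sham mean and 3 above every sham array, with a change of 0.36 ± 0.16 (SE; log2; limma adjusted p = 0.22). The largest change was 0.37 ± 0.18 (A_72_P572635) and the most negative -0.08 ± 0.19 (A_72_P577118). Averaged over the 10 probes the gene stood at 0.18 with a 95% interval of -0.13 to 0.50.

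Cystatin C, the inhibitor, was read by a single probe (A_72_P035716, mean signal 12212). Levels in sham were 4.91 at the lowest, 5.21 at the median and 5.48 at the highest, and in OA 4.37, 4.94 and 5.44. OA 7 lay near the top of the sham range, and OA 2, OA 3 and OA 6 lay below every sham array. The change was -0.30 ± 0.18 (SE, n = 7 per group; log2) with a 95% interval of -0.68 to 0.07 (limma adjusted p = 0.36). By slide the means were 5.26 and 5.14 for sham and 5.15, 4.75 and 5.07 for OA, so the lowest mean was that of slide 4. With slides 3 and 4 left out, the change was -0.14 (limma adjusted p = 0.89).

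**Figure D2:**
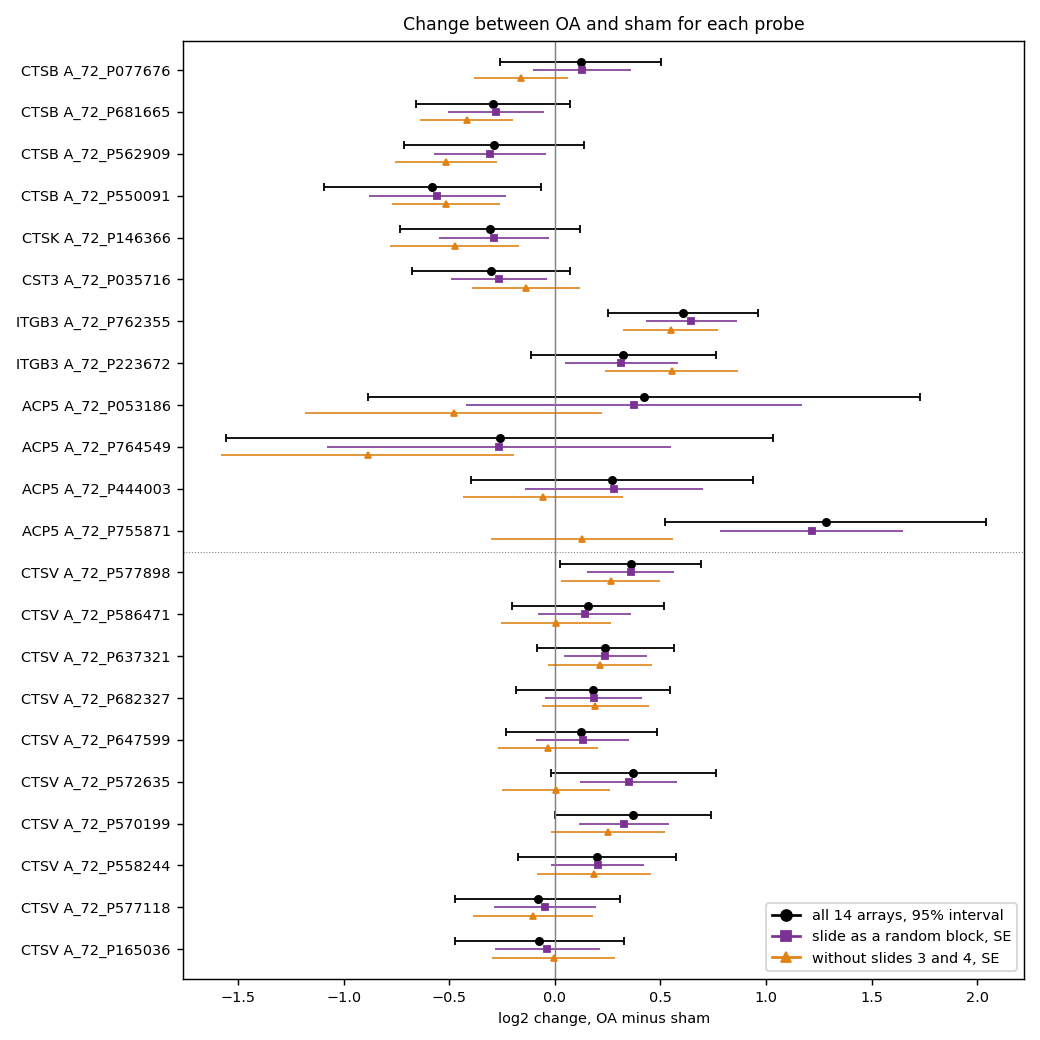
Log2 change, OA minus sham, for the 12 probes and, below the dotted line, the 10 CTSV probes, with all arrays (black, 95% interval), with the slide as a random block (purple, SE) and without slides 3 and 4 (orange, SE). Both ITGB3 probes are above 0 in all 3 fits, at 0.61 and 0.32 with all arrays, while the ACP5 probe A_72_P755871 goes from 1.28 to 0.13 without slides 3 and 4.

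A ratio of 2 signals on one array is free of the array's scaling. It is not free of array brightness where 2 probes respond to it unequally, which was not tested. Each cathepsin was also set against CST3 within the same array, using the brightest probe of each gene. These ratios, together with ITGB3 against CTSK and ITGB3 against ACP5, made a family of 5, tested by two-sided exact permutation over all 3432 assignments of the arrays. The ratio of CTSV to CST3, on the log2 scale and relative to the sham mean, ran from -0.58 to 0.42 in sham, with a median of 0.14, and from 0.04 to 1.14 in OA, with a median of 0.77. It was higher in OA by 0.66, a 1.58-fold shift, in 7 of 7 OA arrays, 5 of which exceeded every sham array (exact permutation p = 0.0082, adjusted p = 0.020). The ratio of CTSB to CST3 was higher by 0.43 in 6 of 7 OA arrays and did not pass (exact permutation adjusted p = 0.17). It rests on the brightest CTSB probe. Averaged over its 4 probes CTSB stood at -0.26, beside -0.30 for CST3. The ratio of CTSK to CST3 differed by -0.0038 (exact permutation adjusted p = 0.99), against a spread of 0.27 in sham and 0.48 in OA (SD, n = 7). Both genes stood lower in OA by value, by 0.31 and 0.30.

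The CTSV to CST3 result depended on the probes and slides used. With the mean of all probes of each gene the shift was 0.49 (exact permutation adjusted p = 0.068), and without slide 4 it was 0.46 (adjusted p = 0.31). Without slides 3 and 4 it was 0.40; with 7 sham and 2 OA arrays a lone ratio cannot reach an adjusted p below 0.14, so that value has no usable test. By slide, the mean ratio relative to the sham mean was -0.11 and 0.15 in sham and 0.59, 0.81 and 0.40 in OA. Each OA slide thus had a mean above both sham slides; the permutation test took arrays as exchangeable and makes no allowance for slides.

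**Figure D3:**
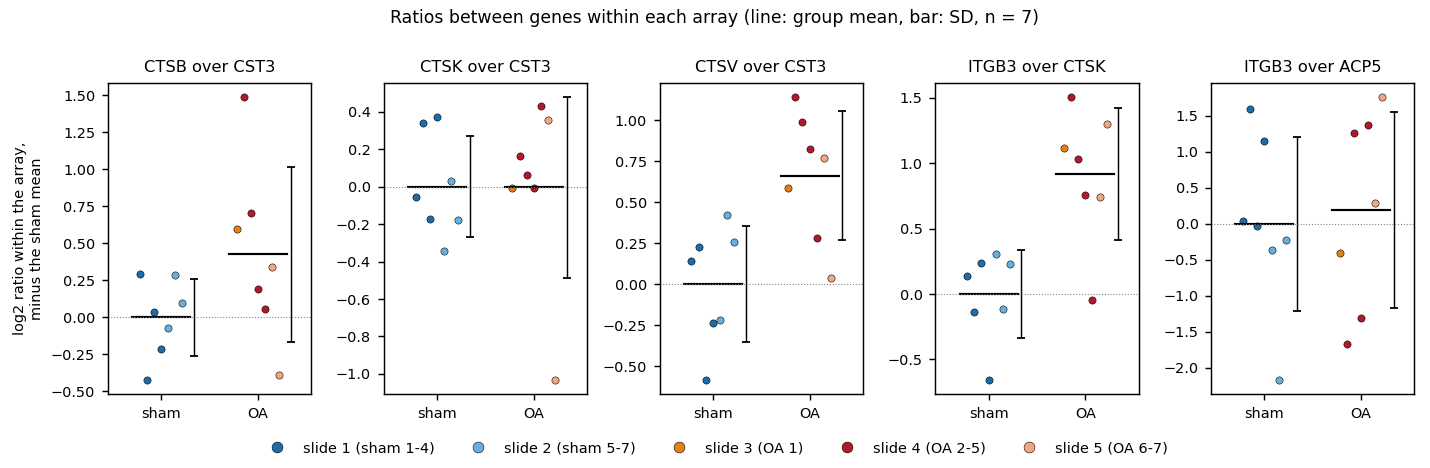
Log2 ratio of the signals of 2 genes within each array, minus the sham mean, for 5 pairs of genes (points coloured by slide, line the group mean, bar the SD, n = 7). The OA mean lies 0.66 above sham for CTSV over CST3 and 0.92 above sham for ITGB3 over CTSK, and at -0.0038 for CTSK over CST3.

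ITGB3 gave the change nearest to the threshold. Its brighter probe (A_72_P762355, mean signal 67422) had a lowest, median and highest level of 6.87, 7.20 and 7.50 in sham and of 7.34, 7.81 and 8.27 in OA. Of the OA arrays 6 of 7 lay above every sham array, and only OA 5 fell within the sham range. The change was 0.61 ± 0.17 (SE, n = 7 per group; log2), a 1.53-fold difference with a 95% interval of 0.25 to 0.96 on the log2 scale, and it did not pass over all probes (limma adjusted p = 0.055). It passed when array medians were used for scaling (limma adjusted p = 0.035). Of 30 alternative settings, 7 passed, with limma adjusted p between 0.018 and 0.74.

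The value of this ITGB3 probe held its sign across slides while its test did not pass with them considered. The slide means were 7.28 and 7.12 in sham and 8.27, 7.74 and 7.76 in OA. With the slide as a random block the change was 0.65 (limma adjusted p = 0.26), without slides 3 and 4 it was 0.55 (adjusted p = 0.35), and with array brightness as a covariate 0.41 (adjusted p = 0.74). Before scaling, the signal of this probe ran from 71376 to 89587 on the sham arrays and from 32892 to 103660 on the OA arrays, with the lower OA signals on the dim arrays of slide 4.

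The other ITGB3 probe (A_72_P223672, mean signal 1015) had a lowest, median and highest level of 1.02, 1.17 and 2.27 in sham and of 1.14, 1.72 and 1.95 in OA. Its highest value of all was sham 4, so that no OA array exceeded the sham range, although 6 of 7 were above the sham mean. The change was 0.32 ± 0.21 (SE, n = 7 per group; log2; limma adjusted p = 0.41). The 2 probes did not follow each other between animals (Pearson correlation of -0.35 over the 14 arrays with group means removed), and their changes differed by 0.29 (exact permutation adjusted p = 0.39). Averaged over both, ITGB3 stood at 0.47 with a 95% interval of 0.18 to 0.75 (limma adjusted p = 0.13 over 2258 genes).

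Set against cathepsin K within the array, ITGB3 was higher in OA. The log2 ratio relative to the sham mean ran from -0.66 to 0.31 in sham, with a median of 0.14, and from -0.04 to 1.51 in OA, with a median of 1.03. OA 5 was the only OA array within the sham range. The shift of 0.92, or 1.89-fold, passed (exact permutation p = 0.0029, adjusted p = 0.015 over 5 ratios). Slide means were -0.11 and 0.14 in sham and 1.11, 0.81 and 1.02 in OA, and without slides 3 and 4 the shift was 1.02. Its adjusted p of 0.14 there is the smallest that the exact permutation test of 9 arrays allows a lone ratio. Without slide 4 the shift was 1.05 (exact permutation adjusted p = 0.042, likewise the smallest for a lone ratio). Both genes are known from osteoclasts, and their signals shifted unequally between these arrays. This ratio was not fitted with array brightness as a covariate. With that covariate the ITGB3 probe alone stood at 0.41 and CTSK at -0.50 (limma adjusted p = 0.74 for both). The ratio of ITGB3 to ACP5 shifted by 0.19 (exact permutation adjusted p = 0.97), against a spread of 1.21 in sham and 1.36 in OA (SD, n = 7).

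ACP5, tartrate-resistant acid phosphatase, varied more between animals than between groups. On its brightest probe (A_72_P053186, mean signal 2356) the lowest, median and highest levels were 1.08, 2.79 and 4.29 in sham and 1.21, 2.77 and 4.98 in OA. The medians were thus alike, and both groups held arrays at either end of the range. The change was 0.42 ± 0.62 (SE, n = 7 per group; log2) with a 95% interval of -0.89 to 1.73 (limma adjusted p = 0.75). Sham 6 and OA 2 were the highest of their groups, and OA 2 alone exceeded every sham array. Without slides 3 and 4 the change was -0.48.

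Among the other ACP5 probes, A_72_P764549 and A_72_P444003 followed the brightest probe closely from animal to animal (Pearson correlations of 0.95 and 0.88 over the 14 arrays with group means removed). Their changes were -0.26 ± 0.61 and 0.27 ± 0.32 (limma adjusted p = 0.85 and 0.68). Their mean signals were 96.15 and 56.4, beside 2356 for the brightest probe. Before scaling, the signal of A_72_P764549 ran from 45.6 to 645 on the sham arrays and from 13.7 to 155 on the OA arrays. The lowest, OA 3, lay on the dim slide 4. The brightest probe shifted by 0.68 more than A_72_P764549 between the groups (exact permutation adjusted p = 0.041 over 7 probe pairs), a difference that was 0.41 without slides 3 and 4, where a lone pair cannot pass. Probes of one transcript therefore differed in sign by value.

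The last ACP5 probe, A_72_P755871, stood apart. Its correlation with the other 3 was 0.33 to 0.41, and its lowest, median and highest levels were -4.80, -3.38 and -3.01 in sham and -3.76, -1.85 and -1.71 in OA. The 5 arrays of slides 3 and 4 lay above every sham array, whereas OA 6 and OA 7 fell among the sham arrays. The change was 1.28 ± 0.36 (SE, n = 7 per group; log2; limma adjusted p = 0.058) and it passed in 5 of 30 alternative settings, with limma adjusted p between 0.0012 and 0.95. The probe was dim, with a mean signal of 47.0. Its signal before scaling ran from 21.5 to 56.7 on the sham arrays and from 36.4 to 68.8 on the OA arrays. Without slides 3 and 4 the change was 0.13, and with array brightness as a covariate it was -0.22.

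Other genes of these systems were read from lists, each gene by its brightest probe; among all 2258 named genes tested that way 3.23% were called (2.97% higher and 0.266% lower), and 15.3% had an unadjusted p under 0.05. Across 6 lists, 39 different genes were tested, 0 were called by limma, and 5 had an unadjusted p under 0.05. Their median change was -0.04, with 18 positive and 21 negative. Of 4 other lysosomal proteases, CTSV is given above; CTSH, an aminopeptidase cathepsin, stood at -0.58 ± 0.26 (SE, log2; limma adjusted p = 0.24), CTSZ, a carboxypeptidase cathepsin, at -0.28 ± 0.28, and CTSD, the aspartic cathepsin, at 0.09 ± 0.18. Both other measured inhibitors of cysteine proteases had small changes by value: CSTB, the intracellular cystatin B, stood at -0.08 ± 0.23 and CAST, the calpain inhibitor calpastatin, at -0.21 ± 0.22.

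Of 10 genes of the lysosome membrane and its hydrolases 0 were called, 7 were negative and 3 positive, and the median was -0.24 beside 0.0034 over all named genes. The smallest p values were those of HEXA, a subunit of beta-hexosaminidase, at -0.65 ± 0.22 (SE, log2; limma adjusted p = 0.11), and LAMP1, a lysosomal membrane glycoprotein, at -0.57 ± 0.25 (adjusted p = 0.22). PSAP, the precursor of the saposins, stood at -0.34 ± 0.28. NPC2, which carries cholesterol out of the lysosome, stood at 0.27 ± 0.22.

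Of 10 genes of osteoclast differentiation and resorption 0 were called and 0 had an unadjusted p under 0.05, with 4 positive, 6 negative and a median of -0.13. The negative genes include SPI1, at a mean signal of 7.31 and above background on 7 sham but only 3 OA arrays. PTH1R, the parathyroid hormone receptor of osteoblasts, stood at -0.61 ± 0.41 (SE, log2), MITF, a transcription factor of osteoclasts, at 0.42 ± 0.33, FOS at 0.56 ± 0.52 and MMP9, the gelatinase of osteoclasts, at 0.38 ± 0.35 (limma adjusted p from 0.43 to 0.59). NFATC1, the master factor of osteoclast formation, stood at -0.43 ± 0.41. CALCR, the calcitonin receptor that marks mature osteoclasts, was dim at a mean signal of 29.7 and stood at -0.01 ± 0.22. The receptor and ligand pair that drives osteoclast formation, TNFRSF11A and TNFSF11, was not analysed here.

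Integrin chains in general, with partners and ligands of beta 3, made up another list. Of its 10 genes 6 were positive, 4 negative and 0 called, with a median of 0.22, beside 1141 positive of all 2258 named genes. ITGA2B, the platelet partner chain, stood at 0.98 ± 0.42 (SE, log2; limma adjusted p = 0.21), ITGAV, the partner chain on osteoclasts, at 0.29 ± 0.20 with 3 of its 5 probes positive, and ITGB8, which pairs with alpha V but not with beta 3, at 0.25 ± 0.18. Of the ligands, VTN, vitronectin, stood at 0.19 ± 0.22 with only 2 of its 6 probes positive, and MFGE8 at -0.32 ± 0.23. Of 5 listed substrates of cathepsins 0 were called. TG, thyroglobulin, a thyroid protein and not one of cartilage or bone, stood at 0.25 ± 0.16 with 3 of its 9 probes positive. Of the matrix proteins, SPARC stood at 0.25 ± 0.25, ACAN, the aggrecan core protein, at 0.24 ± 0.37 and SPP1, osteopontin, at -0.26 ± 0.44. Positive probes were 2 of 7 for SPARC, 2 of 3 for ACAN and 0 of 4 for SPP1.

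**Figure D4:**
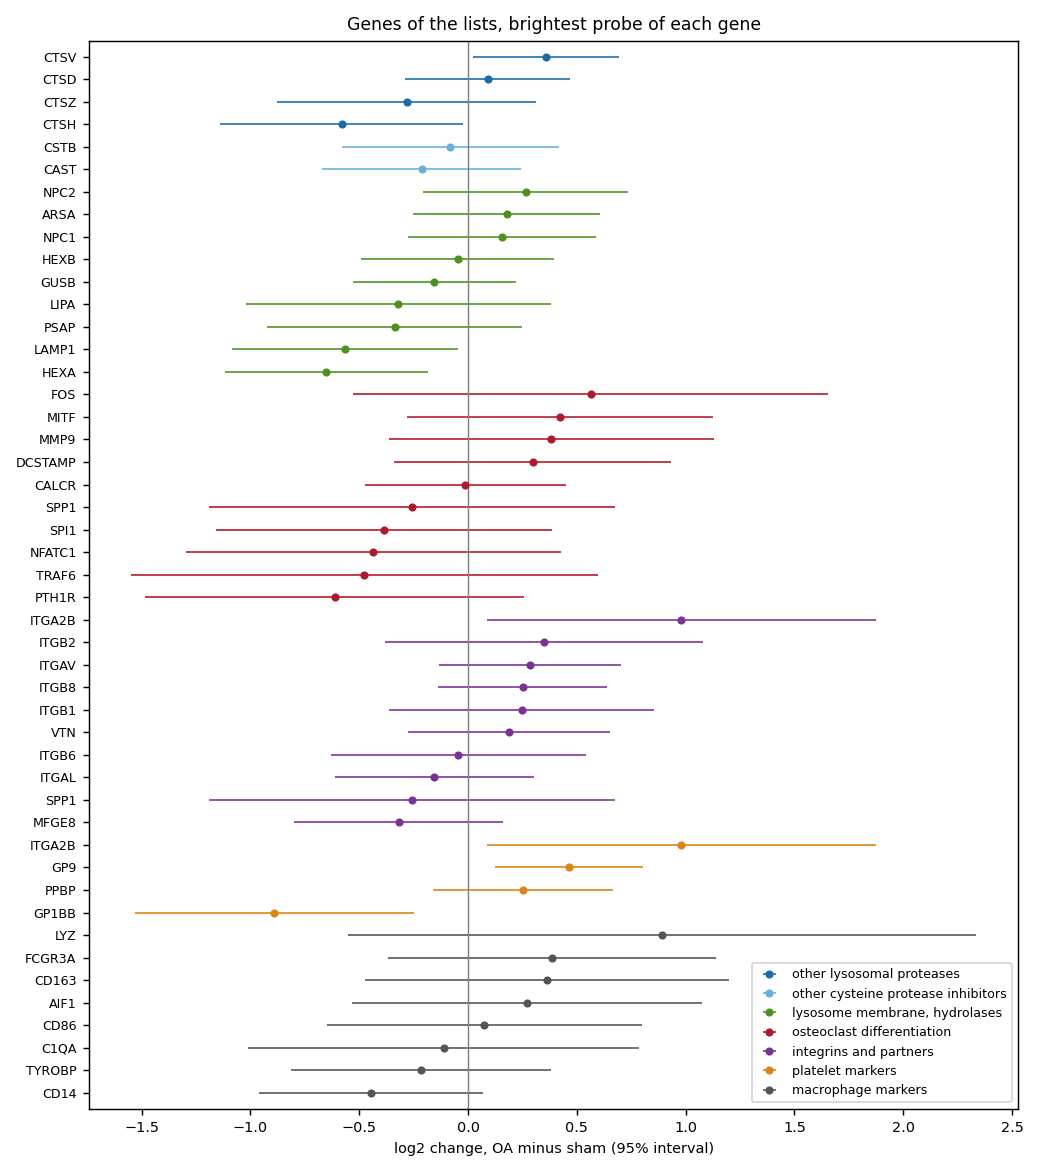
Log2 change, OA minus sham, with its 95% interval, for genes of 5 lists and for platelet and macrophage markers, each gene by its brightest probe and coloured by list. Lysosome genes run from -0.65 (HEXA) to 0.27 (NPC2), and ITGA2B stands at 0.98 with an interval of 0.09 to 1.87.

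Markers of cells that carry the same genes were read beside these results. Of 7 tested osteoclast markers (ACP5, CTSK and ITGB3 among them) 0 were called, beside 3.23% of all named genes tested. All 7 were well above background on every array, as were 27747 of all 43603 probes. The summed level of the 7 markers, in multiples of the array's 75th percentile, was 157 to 220 in sham and 196 to 357 in OA. The ITGB3 probe made up 72.1 to 91.3% of that sum, and the other 6 summed to 28.3 to 47.4 in sham and 20.1 to 51.1 in OA. Such sums and shares, here and below, add probes that bind unequally. They lean on bright probes and do not weigh the genes against each other. Of 4 platelet and megakaryocyte markers 0 were called and 3 had an unadjusted p under 0.05, beside 15.3% of all named genes. They were ITGA2B, as above, GP9 and GP1BB. GP9, a subunit of the platelet receptor for von Willebrand factor, stood at 0.46 ± 0.16 (SE, log2, limma adjusted p = 0.12). GP1BB, another subunit, stood at -0.89 ± 0.30 with a mean signal of 14.2. It was above background on 7 of 7 sham but 3 of 7 OA arrays, so the sham arrays alone brought it past the filter. PPBP stood at 0.25 ± 0.20. The summed level of the 4 was 2.09 to 8.12 in sham and 3.22 to 20.9 in OA. ITGA2B made up 83.5 to 97.1% of it, and the other 3 summed to 0.303 to 0.481 in sham and 0.408 to 0.605 in OA; their part in the ITGB3 values was not tested. Of 8 macrophage and monocyte markers 0 were called, with 5 positive and a summed level of 21.5 to 96.9 in sham and 45.0 to 98.4 in OA. CD14 stood at -0.45 ± 0.24, LYZ at 0.89 ± 0.68, FCGR3A at 0.39 ± 0.36 and CD163 at 0.36 ± 0.40; their part in the ACP5 and cathepsin values was not tested.

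The labelled tissue was checked against markers of fibrocartilage cells. Of these, ACAN, SOX9, DCN and HAPLN1 were tested and were not called. All 4 were well above background on all arrays, as were 27747 of all 43603 probes. The type I and II collagens were not analysed here. Of 3 bone markers, 3 endothelial, 15 skeletal muscle, 7 adipocyte and 2 red cell markers, 2 muscle genes, 1 adipocyte gene and 1 red cell gene were called higher and 0 lower. These were MYOD1 and TNNI1, LEP and KLF1, with mean signals of 14.7, 32.8, 1011 and 41.3, beside a median of 86.6 over all tested probes. Among all named genes tested 2.97% were called higher and 0.266% lower. By value the sets were mixed. Of the 15 muscle genes 8 were positive and 7 negative, and of the 7 adipocyte genes 5 and 2. The negative muscle genes include TNNC1 and TNNC2, above background on all 7 sham arrays but on only 2 and 0 OA arrays. The sham arrays alone brought these genes past the filter. Of the 3 bone and of the 3 endothelial genes 1 was positive and 2 negative, and the 2 red cell genes were positive.

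Genes that varied most like each member from pig to pig were sought among 2256 other named genes, by Pearson correlation over the 14 arrays with the group means removed. For the brighter ITGB3 probe these were CYP24A1 (0.94), PLTP (0.92) and GALP (0.89). Their changes between the groups were 0.60, 0.63 and 0.59, of which that of GALP passed (limma adjusted p = 0.036). For CTSK they were BMP4 (0.91), SRSF4 (0.88) and CD4 (0.87), and for the brightest CTSB probe CSTB (0.82), ADGRE5 (0.82) and SOCS2 (0.81), of which SOCS2 was called higher in OA by 1.48 (limma adjusted p = 0.011). For ACP5 they were NOS3 (0.87), ICAM3 (0.86) and S1PR5 (0.83), for CST3 CASS4 (0.88), BPIFA2 (0.75) and SPDEF (0.73), and for CTSV RPL22 (0.72), RPL36AL (0.69) and IRAK4 (0.68). Each is the highest of many correlations, and array and scaling are shared by all points. Among the members, each by its brightest probe, CTSB and ACP5 correlated at 0.62, CTSB and ITGB3 at 0.57, CST3 and ACP5 at -0.47, CTSK and CST3 at 0.28 and CTSK and ITGB3 at 0.06. The CTSB values hold for that probe, whose correlation with the other CTSB probes was only -0.04 to 0.38.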

How the data were processed

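Total RNA was labelled with Cy3 and read on 14 single-colour arrays. The deposited intensity values came from Agilent Feature Extraction 11.0.1.1, per the file headers, with background subtracted within each array and no scaling between arrays. The authors' deposited series table holds log2 values with equal medians (6.00) on all arrays, in the direction of the scanner signal (Spearman rho at least 0.994); no label or header records how it was made, and it served as an alternative.

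Values were log2 processed signal minus each array's 75th percentile. Marked spots were set missing (82) and spots of one probe averaged. Probes well above background on at least 7 arrays were tested with limma 3.58.1 in R 4.3.3, two-sided, which kept 38818 and left out 4785. Scripts were tested on simulated data. Intervals are 95% intervals of the fit. The number of arrays limits the precision. Genes were named by matching RefSeq accessions to the Sscrofa11.1 table (5461 of 5779 probes with such an accession). No coordinates are given, as no label or header names the build of the array's probes. Protein and probe sequences were not used here.

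Slides and scan days were taken from the scan times and numbered by array order. Ratios and probe differences were tested by exact permutation; the probe differences were added after the files had been seen, and CTSV stood in for CTSL in the ratios by its synonym. Members, lists and tests were chosen with earlier results of these data known. The named genes were every member probe and up to 4 genes of each gene list by smallest p. The 3 most correlated genes of each member were also named. CALCR, NFATC1, NPC2, SPI1, VTN, SOX9, DCN and HAPLN1 were added after their values were seen. So were TNNC1, TNNC2 and the called muscle, fat and red cell genes. A gene of the lysosome list enters its counts and is not reported here by name. The normexp alternative used the median spot signal, because the mean was not in the columns.

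The replicate numbers were checked for pairing: deviations of same-numbered sham and OA arrays correlated at -0.19 to 0.27, which gave no sign that the numbers pair the animals. Low correlations cannot exclude a pairing.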

Additional observations from a re-analysis of the deposited data

Results flagged for a closer look

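Arrays that stood apart from the rest of their group were sought in 54 sets of 7 arrays (22 probes and 5 ratios in each group), by the gap to the nearest array as a share of the group's range, with a critical value of 0.568. Chance alone marks about 1 set in 20, and 3 were marked. Sham 4 was high for the ITGB3 probe A_72_P223672, at 2.27 against 1.30 for the next array (share 0.77). OA 3 was low for the CTSB probe A_72_P550091, at -2.86 against -1.82 (share 0.58). OA 7 was low for the ratio of CTSK to CST3, at -1.45 against -0.42 (share 0.70), and without it that shift was 0.17 in place of -0.0038. Without sham 4 the ITGB3 probe stood at 0.48 in place of 0.32, and without OA 3 the CTSB probe stood at -0.37 in place of -0.58.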

How the results depend on the processing

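The 12 probes were called 0 times with all arrays, by limma; 3 had an unadjusted p under 0.05. Across alternatives the number called was 1 with median scaling, 5 with normexp background correction, 2 with no filter, 2 with a filter on all 14 arrays, 1 with array weights and 1 with a trended variance, and it ran from 0 to 1 when each array was left out. The probes concerned were ITGB3 A_72_P762355 and ACP5 A_72_P755871, joined with normexp by CST3, CTSK and CTSB A_72_P681665. The ITGB3 probe passed without OA 5 (0.69, limma adjusted p = 0.039), and the ACP5 probe without OA 6 (1.43, adjusted p = 0.038) or OA 7 (1.52, adjusted p = 0.021). Normexp moved the median change of all probes to 0.34.

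Counts over all probes depended far more on the processing. Probes called lower, 329, became 674 with quantile normalization, 784 with median scaling, 778 with normexp, 69 with the filter on all arrays, 747 in the authors' table and 541 with array weights; probes called higher, 1120, became 17636 with normexp and 2076 with no filter. Higher and lower calls were 18 and 0 with the slide as a random block, 143 and 5 with the day of scanning as the block, and, in alternatives chosen after seeing the data, 233 and 3 without slide 4, 156 and 39 without slides 3 and 4 and 3 and 1 with array brightness as a covariate. With the replicate block they were 295 and 40, and no member was called. No sign was seen that the replicate numbers pair the animals. Leaving out each array gave 598 to 1307 higher and 87 to 1403 lower, the latter without OA 1.

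Signs turned for values that had not passed, among them the 1.28 of ACP5 A_72_P755871. With normexp, CTSB A_72_P077676 stood at -0.043, ACP5 A_72_P764549 at 0.17, the CTSV probes A_72_P647599 and A_72_P682327 at -0.023 and -0.048, and the CTSK to CST3 ratio at 0.034. With array weights ACP5 A_72_P053186 stood at -0.073. Without slide 4, CTSV A_72_P165036 and A_72_P577118 stood at 0.10 and 0.053. Without slides 3 and 4, ACP5 A_72_P053186 and A_72_P444003 stood at -0.48 and -0.057, CTSB A_72_P077676 at -0.16, CTSV A_72_P647599 at -0.034, the CTSB to CST3 ratio at -0.025, and the probe differences at -0.42 for ACP5 A_72_P444003 and -0.0038 for ITGB3. With brightness as a covariate, ACP5 A_72_P053186, A_72_P444003 and A_72_P755871 stood at -0.66, -0.23 and -0.22, CTSB A_72_P077676 at -0.11, and CTSV A_72_P572635, A_72_P586471 and A_72_P647599 at -0.084, -0.10 and -0.16. The mean of all CTSB probes was -0.26. With each array left out, ACP5 A_72_P764549 ran from -0.54 to 0.048.

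Of the ratios, CTSV to CST3 no longer passed with the mean of all probes (0.49) or without slide 4 (0.46). Without slides 3 and 4 it stood at 0.40 and ITGB3 to CTSK at 1.02; a lone ratio cannot pass there, so these are values without a usable test, and the same holds for the probe differences. Both ratios passed in all other alternatives run for them, out of 22. These did not include a slide block, a scan-day block or a brightness covariate. With each array left out CTSK to CST3 ran from -0.077 to 0.17, ITGB3 to ACP5 from -0.17 to 0.50 and CTSB to CST3 from 0.25 to 0.56, which passed without OA 7 (exact permutation adjusted p = 0.025). That was the only 1 of 22 alternatives in which CTSB to CST3 passed. The ratio used the brightest CTSB probe, and the other CTSB probes stood at -0.58, -0.29 and -0.29, beside -0.30 for CST3. The cause of these shifts was not tested.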
